A study of Homo sapiens with 48 samples.

Results

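The genes described here are ZFAND2A, its relative ZFAND2B and 8 genes of the heat shock programme (HSPA1A, HSPA1B, DNAJB1, HSPH1, BAG3, HSPA8, HSPB1 and HSP90AA1), 10 of the 58870 genes counted. ZFAND2A was selected on its measured values, because its level after UPF1 knockdown is graded over the UPF1 mutant lines, so its values are given as a description with no test. The other 9 were named for their family or programme and were taken by gene name. All 10 were among the 16697 genes that passed the filter on low counts.

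Cells that meet misfolded protein, by heat or by arsenite, release the transcription factor HSF1 from its chaperones, and HSF1 then binds inverted repeats of the letters GAA in promoters and raises the genes of cytosolic chaperones. HSPA1A and HSPA1B encode the inducible HSP70, HSPA8 the constitutive HSC70, DNAJB1 an HSP40 that feeds clients to both, HSPH1 and BAG3 factors that exchange nucleotide on HSP70, HSPB1 a small heat shock protein and HSP90AA1 the inducible HSP90. ZFAND2A encodes AIRAP, an arsenite- and heat-inducible AN1 zinc finger protein that binds the proteasome, and ZFAND2B encodes AIRAPL, a membrane-associated relative that is made constitutively. UPF1 is the RNA helicase of nonsense-mediated mRNA decay (NMD), the pathway that destroys mRNAs whose stop codon comes too early, along with some intact ones.

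RNA was sequenced from stable lines of Flp-In 293 T-REx, which derive from human embryonic kidney and take a transgene at 1 recombination site. In 6 lines the transgene was a CLIP-tagged UPF1 mutant, named LECY, F192E, I757R, E797R, FE-ER or IR-ER. A further line carried CLIP-tagged wild-type UPF1 (WT) and another the CLIP tag alone (CLIP). What LECY, FE-ER and IR-ER stand for is not spelled out in the labels. Each of the 8 lines received 40 nM of an siRNA against UPF1 (siUPF1) or of a non-targeting siRNA (siNT), RNA was taken 72 h later, and 3 biological replicates of each line and siRNA made 16 groups and 48 libraries. All lines still hold the endogenous UPF1 gene, and no source used here says whether a line is 1 clone or how the transgene was induced. The comparison of interest was whether the heat shock programme moves with ZFAND2A when UPF1 is lost or replaced by a mutant.

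Libraries held 6016999 to 14551820 expected counts (median 8670883). UPF1 RNA in the CLIP line was 20.4, 21.3 and 19.5 CPM with siUPF1, against 111, 97.2 and 109 CPM with siNT, where CPM is a gene's count scaled to the TMM-adjusted size of its library. In the 7 lines with a transgene the UPF1 level with siUPF1 was 3066 to 4983 CPM, with transgene and endogenous reads summed at 1 gene, so it does not check the knockdown there. Markers of 293 cells summed to 227 to 507 CPM over the libraries, while those of blood, liver and endothelium reached at most 0.261, 0.512 and 0.335 CPM. In such bulk RNA fewer cells of a type and less RNA per cell cannot be told apart.

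The promoters of ZFAND2A and of 3 chaperone genes are shown because the letters that HSF1 is known to bind can be read in them. Each is the 250 bases before the transcription start in RefSeq (GRCh38.p14), read 5′ to 3′ along the gene, and capitals mark the heat shock element letters. ZFAND2A lies at chr7:1160197-1160446 on the minus strand, HSPA1B at chr6:31827488-31827737 on the plus strand, HSPA8 at chr11:123062137-123062386 on the minus strand and HSP90AA1, at its downstream start, at chr14:102087045-102087294 on the minus strand.
ZFAND2A: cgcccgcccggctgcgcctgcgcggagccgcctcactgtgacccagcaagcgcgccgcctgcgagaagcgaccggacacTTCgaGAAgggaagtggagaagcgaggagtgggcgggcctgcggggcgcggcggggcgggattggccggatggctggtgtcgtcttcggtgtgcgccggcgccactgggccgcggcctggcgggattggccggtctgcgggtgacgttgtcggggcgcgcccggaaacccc
HSPA1B: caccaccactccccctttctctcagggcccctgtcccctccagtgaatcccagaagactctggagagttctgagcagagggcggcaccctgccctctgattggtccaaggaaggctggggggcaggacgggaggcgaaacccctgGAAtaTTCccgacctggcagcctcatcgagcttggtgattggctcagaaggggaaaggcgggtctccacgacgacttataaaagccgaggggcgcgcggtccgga
HSPA8: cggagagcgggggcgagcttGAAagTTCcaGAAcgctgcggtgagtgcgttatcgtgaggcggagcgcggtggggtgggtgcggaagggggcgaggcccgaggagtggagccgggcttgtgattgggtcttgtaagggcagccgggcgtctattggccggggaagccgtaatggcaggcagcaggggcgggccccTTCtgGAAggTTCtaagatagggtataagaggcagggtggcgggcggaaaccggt
HSP90AA1: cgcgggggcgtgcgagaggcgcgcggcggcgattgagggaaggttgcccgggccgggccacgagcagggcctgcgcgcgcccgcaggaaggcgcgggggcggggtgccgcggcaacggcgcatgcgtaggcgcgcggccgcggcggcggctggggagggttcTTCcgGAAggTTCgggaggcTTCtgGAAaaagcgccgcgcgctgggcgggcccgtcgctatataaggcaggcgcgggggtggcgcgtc

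The motifs searched were the unit pairs GAANNTTC and TTCNNGAA, each of which is its own reverse complement and so reads alike on both strands, and their overlapping runs of 3 units, GAANNTTCNNGAA and TTCNNGAANNTTC. A pair stood in 7 of the 13 RefSeq promoters of the 10 genes, against 11.6% of 35116 promoters of all genes. ZFAND2A held 1 pair and no run of 3 units. HSPA1A, HSPA1B and HSPB1 also held 1 pair each, and 1 of the 3 starts of DNAJB1 held 2. HSPA8 held 2 runs of 3 units, and the downstream start of HSP90AA1 held 1 such run, the nearest ending 42 and 75 bases before the start, while 0.441% of all promoters held any. ZFAND2B, HSPH1, BAG3, the upstream start of HSP90AA1 and the other 2 starts of DNAJB1 held no pair in these 250 bases. A match to these letters is a description of the window and not of binding.

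By GENCODE 29 (hg38) ZFAND2A lies on chromosome 7 from 1152071 to 1160759 on the minus strand, and its principal transcript has 5 exons, a coding sequence of 435 bases and a 3′ UTR of 162 bases. An antisense gene, AC091729.3, overlaps it, and reads of both cannot be told apart, as no source used here gives the strand setting of the counting. The transcript has 1 upstream reading frame that closes within the 5′ UTR, a feature of 45.3% of 13131 coding genes tested, and none of the 4 coding transcripts of the gene is accompanied by an annotated NMD transcript, which 42.2% of those genes have. No principal transcript of the 10 genes has an exon junction more than 50 bases after its stop codon, the arrangement that marks an mRNA for NMD, and 0.32% of coding genes have one. HSPB1 and HSP90AA1 also carry 1 closed upstream frame each. The promoter windows of ZFAND2A, ZFAND2B, DNAJB1 and HSPA8 lie inside their GENCODE genes. Sequence before the outermost GENCODE start of these genes was therefore not searched for the motifs.

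ZFAND2A was highest after UPF1 knockdown in the LECY and CLIP lines, intermediate in F192E, and close to its siNT level in most other lines. LECY cells held 43.3, 53.4 and 47.9 CPM with siUPF1, against 10.2, 13.7 and 8.77 CPM with siNT. CLIP cells held 40.9, 51.2 and 52.2 CPM with siUPF1, against 13.8, 12.4 and 13.7 CPM with siNT. In both lines every library with siUPF1 stood far above every library with siNT. F192E cells held 22.1, 27.0 and 26.6 CPM with siUPF1, against 13.2, 12.0 and 13.2 CPM with siNT, again with no overlap. On the log2 scale these changes were 2.14 (SE 0.14) in LECY, 1.86 (SE 0.14) in CLIP and 0.97 (SE 0.14) in F192E.

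The remaining 5 lines had smaller ZFAND2A changes of both signs. FE-ER cells held 15.8, 15.9 and 13.9 CPM with siUPF1, against 10.1, 12.7 and 9.20 CPM with siNT, a log2 change of 0.52 with no overlap. I757R cells held 16.5, 15.2 and 12.8 CPM with siUPF1 and 11.7, 15.8 and 11.5 CPM with siNT, and these groups overlapped (log2 0.20). IR-ER cells held 11.1, 13.6 and 11.6 CPM with siUPF1 and 11.3, 12.1 and 12.1 CPM with siNT, also overlapping (log2 0.04). In the last 2 lines the siUPF1 libraries were the lower ones. E797R cells held 9.86, 9.39 and 10.4 CPM with siUPF1, against 11.7, 11.4 and 12.9 CPM with siNT, without overlap (log2 −0.27). WT cells held 11.4, 12.7 and 9.93 CPM with siUPF1 and 15.1, 13.2 and 11.9 CPM with siNT, with 1 siUPF1 library above the lowest siNT library (log2 −0.24). ZFAND2A was thus higher with siUPF1 in 15 of 24 same-numbered pairs and lower in 9, and the 9 were all 3 pairs of WT and of E797R, 2 of IR-ER and 1 of I757R.

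**Figure D1:**
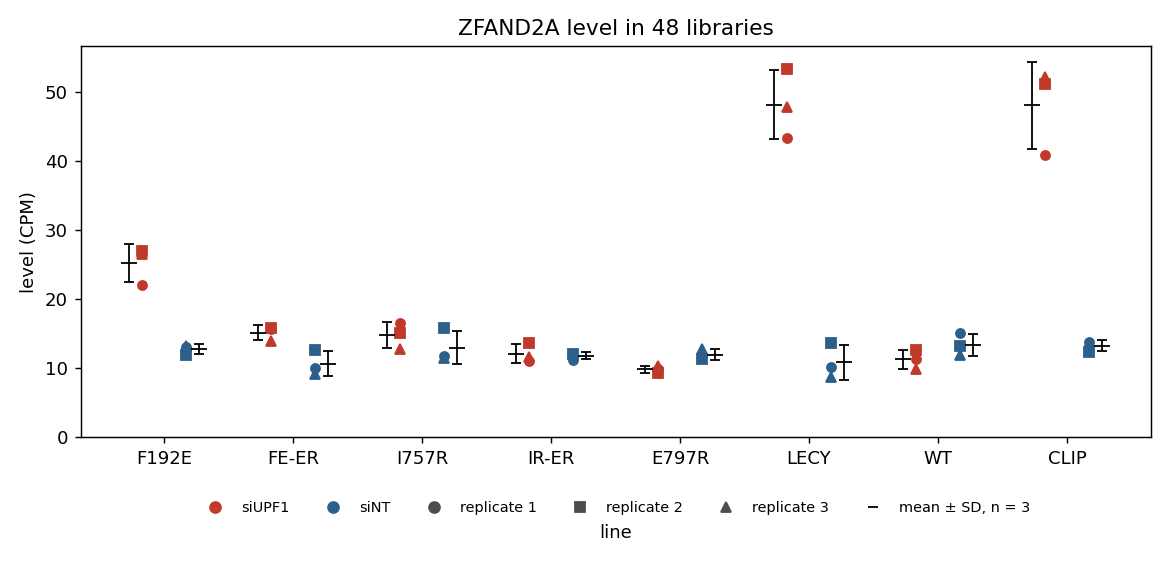
ZFAND2A level in CPM (vertical axis) in each of 48 libraries, by line (horizontal axis), with siUPF1 in red left of siNT in blue; marker shapes give the replicate number and the black bars the mean ± SD of 3 libraries. LECY and CLIP with siUPF1 average 48.2 and 48.1 CPM, F192E with siUPF1 averages 25.2 CPM, and the other 13 groups average 9.88 to 15.2 CPM.

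Ordered by mean, the 16 groups ran from LECY with siUPF1 (48.2 ± 5.04 CPM, SD, n = 3) to E797R with siUPF1 (9.88 ± 0.505 CPM, n = 3). LECY and CLIP with siUPF1 overlapped each other, and F192E with siUPF1 (25.2 ± 2.72 CPM, n = 3) overlapped neither CLIP above it nor FE-ER with siUPF1 (15.2 ± 1.12 CPM, n = 3) below it. From FE-ER downwards every group overlapped the next in the order. A library held 56 to 557 counts of ZFAND2A. Under siNT the 8 lines lay between 10.7 ± 1.81 CPM in FE-ER and 13.4 ± 1.61 CPM in WT (n = 3 each).

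In the fit of all libraries with the low-count filter, no rise of a heat shock gene passed the test in any line. These lines included those in which ZFAND2A was highest. Of 72 cases (9 genes in 8 lines), siUPF1 against siNT was called in 2, both a rise of ZFAND2B, at a Benjamini-Hochberg adjusted p under 0.05 in edgeR's quasi-likelihood test. Over the 8 lines the 95% intervals of the 8 heat shock genes lay within −1.26 (HSPA1A in I757R) to 1.65 (HSPB1 in FE-ER) on the log2 scale. Among all genes tested the same rule called 29.4% in LECY, 21.8% in F192E, 15.9% in I757R, 16.1% in E797R, 18.6% in FE-ER, 17% in IR-ER, 15.4% in WT and 33.7% in CLIP. Unadjusted, 7 of the 72 cases had a p under 0.05. Whether the libraries of 2 groups overlapped is given below as a description, and the share of all genes without overlap was not counted. Same-numbered siUPF1 and siNT libraries deviated together in every line, and a fit that takes the replicate number as a block called 9 cases, 3 rises of ZFAND2B and 6 falls of HSPA8 or HSP90AA1. With that block 41.6% of all genes were called in LECY, 34.6% in F192E, 28.5% in I757R, 27.4% in E797R, 31.1% in FE-ER, 28.2% in IR-ER, 26.1% in WT and 45.6% in CLIP.

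**Figure D2:**
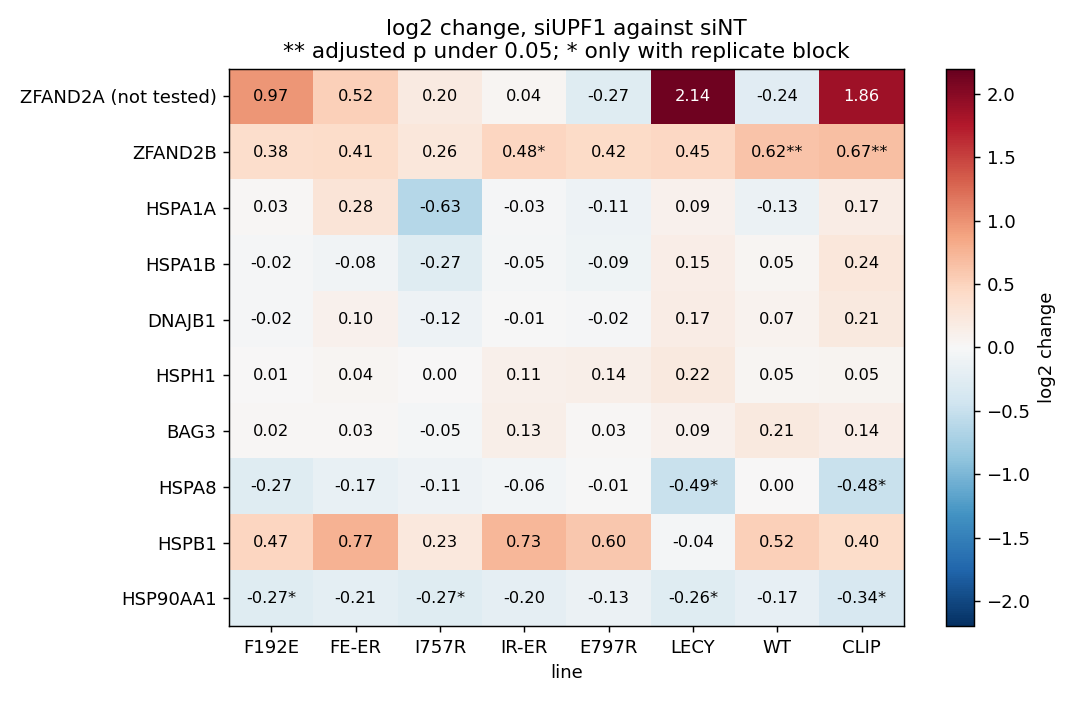
Log2 change of siUPF1 against siNT for each of the 10 genes (rows) in each of the 8 lines (columns), red for higher and blue for lower with siUPF1; 2 asterisks mark an edgeR adjusted p under 0.05 and 1 asterisk a call made only with the replicate block. ZFAND2A reaches 2.14 in LECY and 1.86 in CLIP, and HSPA1B, DNAJB1, HSPH1 and BAG3 stay between −0.27 and 0.24.

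ZFAND2B, the AIRAPL gene (chromosome 2, 219195237 to 219209651, plus strand), was higher with siUPF1 in all 24 same-numbered pairs, as were 10.1% of all genes tested. CLIP cells held 11.5, 9.46 and 9.18 CPM with siUPF1, against 7.16, 5.58 and 6.31 CPM with siNT. WT cells held 10.8, 8.30 and 9.69 CPM with siUPF1, against 7.88, 5.01 and 6.07 CPM with siNT. In neither line did the groups overlap. ZFAND2B rose by 0.67 on the log2 scale in CLIP (SE 0.20, edgeR adjusted p = 0.00696; with the replicate block 0.00184) and by 0.62 in WT (SE 0.21, edgeR adjusted p = 0.0322; with the block 0.011). The WT call was lost without siUPF1 replicate 1 (edgeR adjusted p = 0.142), siUPF1 replicate 3 (0.065), siNT replicate 2 (0.215) or siNT replicate 3 (0.0833). These edgeR fits otherwise kept all libraries. It was also lost in a fit of only the 2 groups compared (edgeR adjusted p = 0.126) or with no expression filter (0.112). Counting fits without a whole replicate number, 9 alternative fits lost the WT call and 6 kept it. IR-ER cells held 9.26, 9.02 and 11.5 CPM with siUPF1, against 5.80, 7.37 and 8.13 CPM with siNT, a log2 change of 0.48 that edgeR called only with the block (adjusted p = 0.0939, with the block 0.043).

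In the other 5 lines the log2 change of ZFAND2B was 0.26 in I757R (95% interval −0.14 to 0.65), 0.38 in F192E (−0.02 to 0.78), 0.41 in FE-ER (0.01 to 0.82), 0.42 in E797R (0.01 to 0.83) and 0.45 in LECY (0.04 to 0.86), and none was called. In WT and E797R the changes of ZFAND2B and ZFAND2A had opposite signs in all 3 pairs of each line. The knockdown effect on ZFAND2B in WT minus that in CLIP was −0.05 (95% interval −0.62 to 0.53, edgeR adjusted p = 0.979), so no difference between these lines was detected. Libraries held 42 to 121 counts of this gene, which limits the precision of each value.

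HSPA1A and HSPA1B, the genes of inducible HSP70, lie on chromosome 6 (31815464 to 31817946 and 31827735 to 31830255, plus strand), and 1919 of the 1923 bases of their coding sequences are identical, so the division of reads between them is an estimate. HSPA1A received 1.36% to 2.31% of the reads of the pair in a library (median 1.77%). HSPA1B ranged over 1202 to 3117 CPM with siUPF1 and 1495 to 2884 CPM with siNT. CLIP cells held 2637, 2951 and 2563 CPM of HSPA1B with siUPF1, against 2371, 2169.8 and 2343 CPM with siNT. These groups did not overlap, and the log2 change of 0.24 (95% interval −0.33 to 0.81, edgeR adjusted p = 0.544) was not called. LECY cells, in which ZFAND2A was as high, held 2648, 2626 and 1909.8 CPM with siUPF1 and 2458, 2113 and 1924 CPM with siNT, a log2 change of 0.15 (95% interval −0.42 to 0.71). Over the 8 lines the log2 change of HSPA1B lay between −0.27 (I757R) and 0.24 (CLIP), and it was higher in 12 of 24 pairs and lower in 12.

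HSPA1A had a range of 16.9 to 60.6 CPM with siUPF1 and 26.3 to 53.5 CPM with siNT. I757R cells held 30.1, 33.5 and 16.9 CPM with siUPF1, against 40.8, 48.4 and 35.3 CPM with siNT, the line with the largest difference among these 8. The groups did not overlap, and the log2 change of −0.63 (95% interval −1.26 to 0.00) missed the threshold (edgeR adjusted p = 0.176, with the block 0.0726). In the other 7 lines the HSPA1A change lay between −0.13 (WT) and 0.28 (FE-ER).

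DNAJB1, the HSP40 partner of HSP70 (chromosome 19, 14514770 to 14529770, minus strand, overlapping TECR on the other strand), ranged over 91.7 to 168 CPM with siUPF1 and 98.6 to 160 CPM with siNT. CLIP cells held 148, 159 and 158 CPM with siUPF1, against 141, 136 and 126 CPM with siNT. No siUPF1 library of CLIP fell among the siNT ones, at a log2 change of 0.21 (95% interval −0.17 to 0.59, edgeR adjusted p = 0.424). LECY cells held 168, 150.4 and 127 CPM with siUPF1 and 149.9, 138 and 109 CPM with siNT, a log2 change of 0.17 (95% interval −0.22 to 0.55, edgeR adjusted p = 0.56). In the other lines its log2 change lay between −0.12 (I757R) and 0.10 (FE-ER), and DNAJB1 was higher in 16 of 24 pairs.

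HSPH1, the HSP110 nucleotide exchange factor (chromosome 13, 31134974 to 31162388, minus strand), ranged over 163 to 325 CPM with siUPF1 and 139 to 307 CPM with siNT, and siUPF1 and siNT libraries overlapped in every line. Its log2 changes were 0.00 (I757R) to 0.22 (LECY), with intervals that lay within −0.56 to 0.78. It was higher with siUPF1 in 21 of 24 pairs by a median of 0.08 on the log2 scale. BAG3, the co-chaperone that links HSP70 to selective autophagy (chromosome 10, 119651370 to 119677819, plus strand), ranged over 70.6 to 121 CPM with siUPF1 and 68.6 to 105 CPM with siNT, and its groups also overlapped in every line. Its log2 changes were −0.05 (I757R) to 0.21 (WT), with intervals within −0.36 to 0.53.

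**Figure D3:**
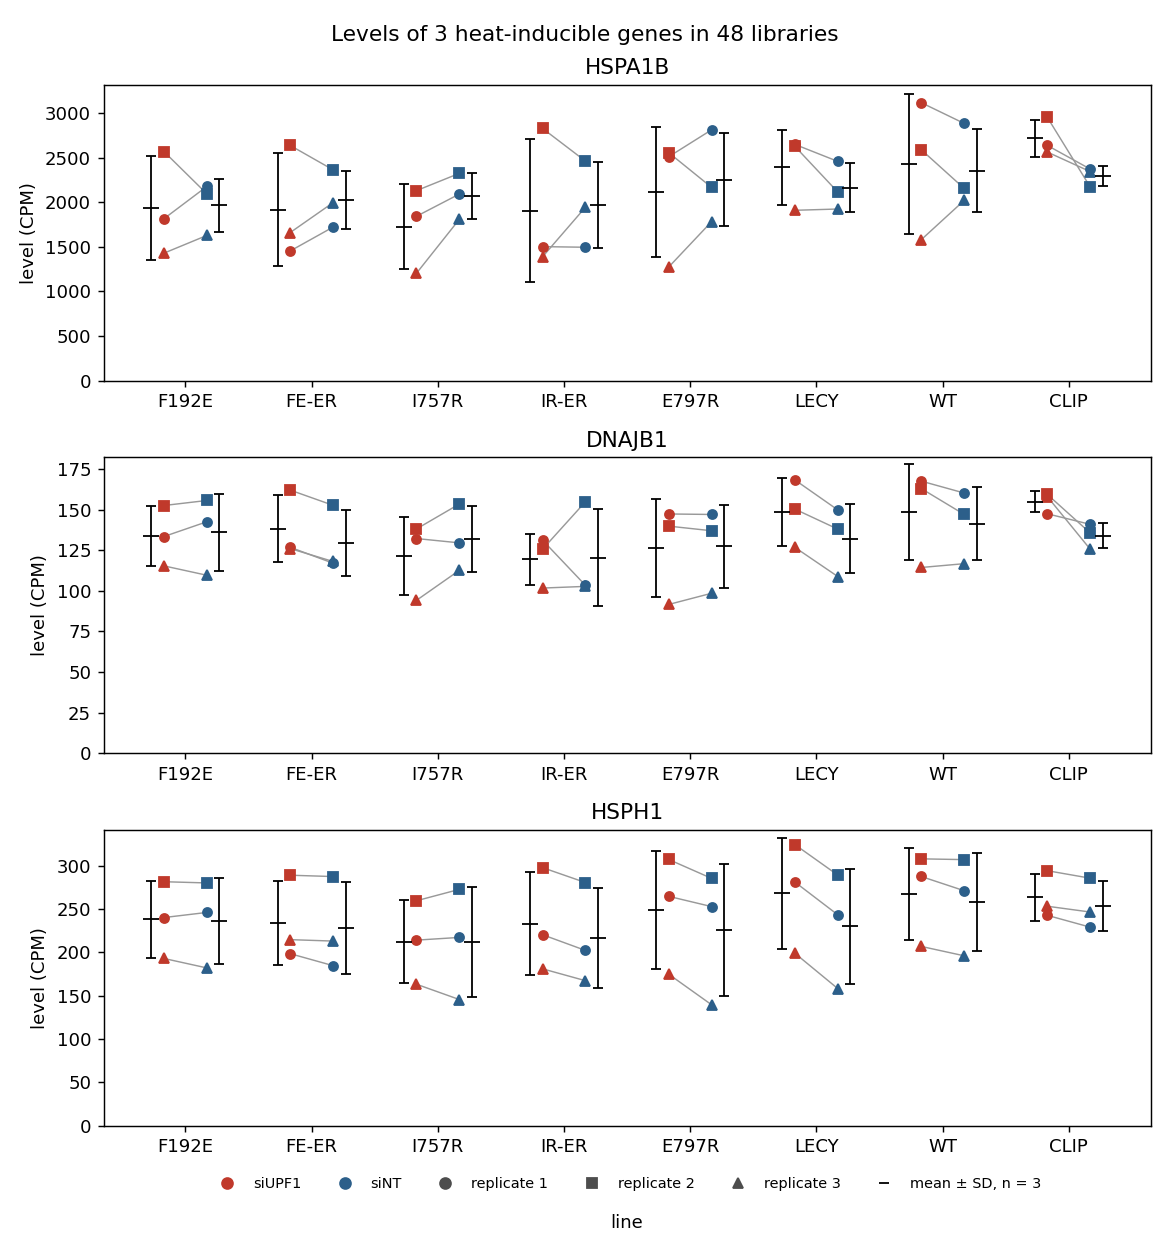
Levels in CPM (vertical axes) of HSPA1B, DNAJB1 and HSPH1 in 48 libraries by line, with siUPF1 in red left of siNT in blue; grey lines join libraries of 1 replicate number and black bars are the mean ± SD of 3 libraries. Libraries of replicate 3 (triangles) are often the lowest of their group: HSPH1 averages 190 CPM over the 16 replicate 3 libraries, against 237 CPM in replicate 1 and 291 CPM in replicate 2.

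HSPB1, the small heat shock protein HSP27 (chromosome 7, 76302544 to 76304295, plus strand), was low, with 9 to 53 counts a library. It ranged over 1.67 to 5.92 CPM with siUPF1 and 1.02 to 4.56 CPM with siNT, and was higher with siUPF1 in 19 of 24 pairs. FE-ER cells held 3.62, 3.64 and 2.95 CPM with siUPF1, against 1.77, 1.46 and 2.63 CPM with siNT, the 1 line in which the groups did not overlap. The log2 change there was 0.77 (95% interval −0.12 to 1.65; edgeR adjusted p = 0.239, with the block 0.0516). In LECY, where ZFAND2A changed most, the HSPB1 change was −0.04 (95% interval −0.92 to 0.84).

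HSPA8, the constitutive HSC70 gene (chromosome 11, 123057489 to 123063230, minus strand, with SNORD14C, SNORD14D and SNORD14E in its introns), was lower with siUPF1 in the lines in which ZFAND2A was highest. LECY cells held 1040.0, 1089 and 763 CPM with siUPF1, against 1418, 1755 and 886 CPM with siNT. CLIP cells held 947, 1111 and 973 CPM with siUPF1, against 1364, 1530.2 and 1338 CPM with siNT. The CLIP groups did not overlap, while in LECY the lowest siNT library lay below 2 siUPF1 libraries and each siUPF1 library lay below the siNT library of its own number. The log2 change was −0.49 in LECY (95% interval −1.09 to 0.11, edgeR adjusted p = 0.229) and −0.48 in CLIP (−1.08 to 0.12, edgeR adjusted p = 0.221), called in neither. With the replicate block HSPA8 fell in both, with log2 changes of −0.46 in LECY (edgeR adjusted p = 0.0202) and −0.48 in CLIP (edgeR adjusted p = 0.0127). Counting the block, 2 alternative fits called the fall in LECY and 3 that in CLIP.

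F192E cells held 1119, 1245 and 949 CPM of HSPA8 with siUPF1 and 1359.5, 1645 and 978 CPM with siNT, a log2 change of −0.27 (95% interval −0.87 to 0.34) that was not called in either fit. WT cells held 1609, 1792 and 1088 CPM with siUPF1 and 1688, 1752 and 1037 CPM with siNT, a log2 change of 0.00 (95% interval −0.60 to 0.60). The change was −0.17 in FE-ER, −0.01 in E797R, −0.11 in I757R and −0.06 in IR-ER. The test of the difference in knockdown effect gave −0.49 for LECY minus WT (95% interval −1.34 to 0.36, edgeR adjusted p = 0.717) and 0.49 for WT minus CLIP (−0.36 to 1.34, edgeR adjusted p = 0.702), so the lines were not shown to differ.

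HSP90AA1, the inducible HSP90 gene (chromosome 14, 102080738 to 102139699, minus strand, overlapping WDR20), was lower with siUPF1 in all 24 same-numbered pairs, as were 9.42% of all genes tested, by 0.09 to 0.38 on the log2 scale. CLIP cells held 3574, 4202 and 3619 CPM with siUPF1, against 4588, 5360.0 and 4518 CPM with siNT. The groups overlapped in the other 7 lines, for example at 3953, 4466 and 3061 CPM with siUPF1 and 4545, 5557 and 3641 CPM with siNT in LECY. In the edgeR fit of all libraries, with the filter and without the block, no line was called. The log2 changes there ran from −0.34 in CLIP (95% interval −0.74 to 0.05, edgeR adjusted p = 0.183) to −0.13 in E797R (−0.53 to 0.27). With the block, HSP90AA1 fell in CLIP (edgeR adjusted p = 0.000883), F192E (0.0103), LECY (0.0132) and I757R (0.0211), by 0.25 to 0.34. Counting the block, 3 alternative fits called the fall in CLIP, 2 that in I757R, and 1 each that in F192E and LECY. In fits without the block the change in LECY was −0.09 without siNT replicate 2, −0.11 without siUPF1 replicate 3 and −0.40 without siNT replicate 3. In I757R it was −0.11, −0.14 and −0.43 without the same libraries of that line. In F192E it was −0.15 without siNT replicate 2, −0.14 without siUPF1 replicate 3 and −0.42 without siUPF1 replicate 2. In WT cells, where ZFAND2A was not higher, the change was −0.17 (95% interval −0.57 to 0.22), and WT minus CLIP was 0.17 (95% interval −0.39 to 0.73, edgeR adjusted p = 0.877).

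**Figure D4:**
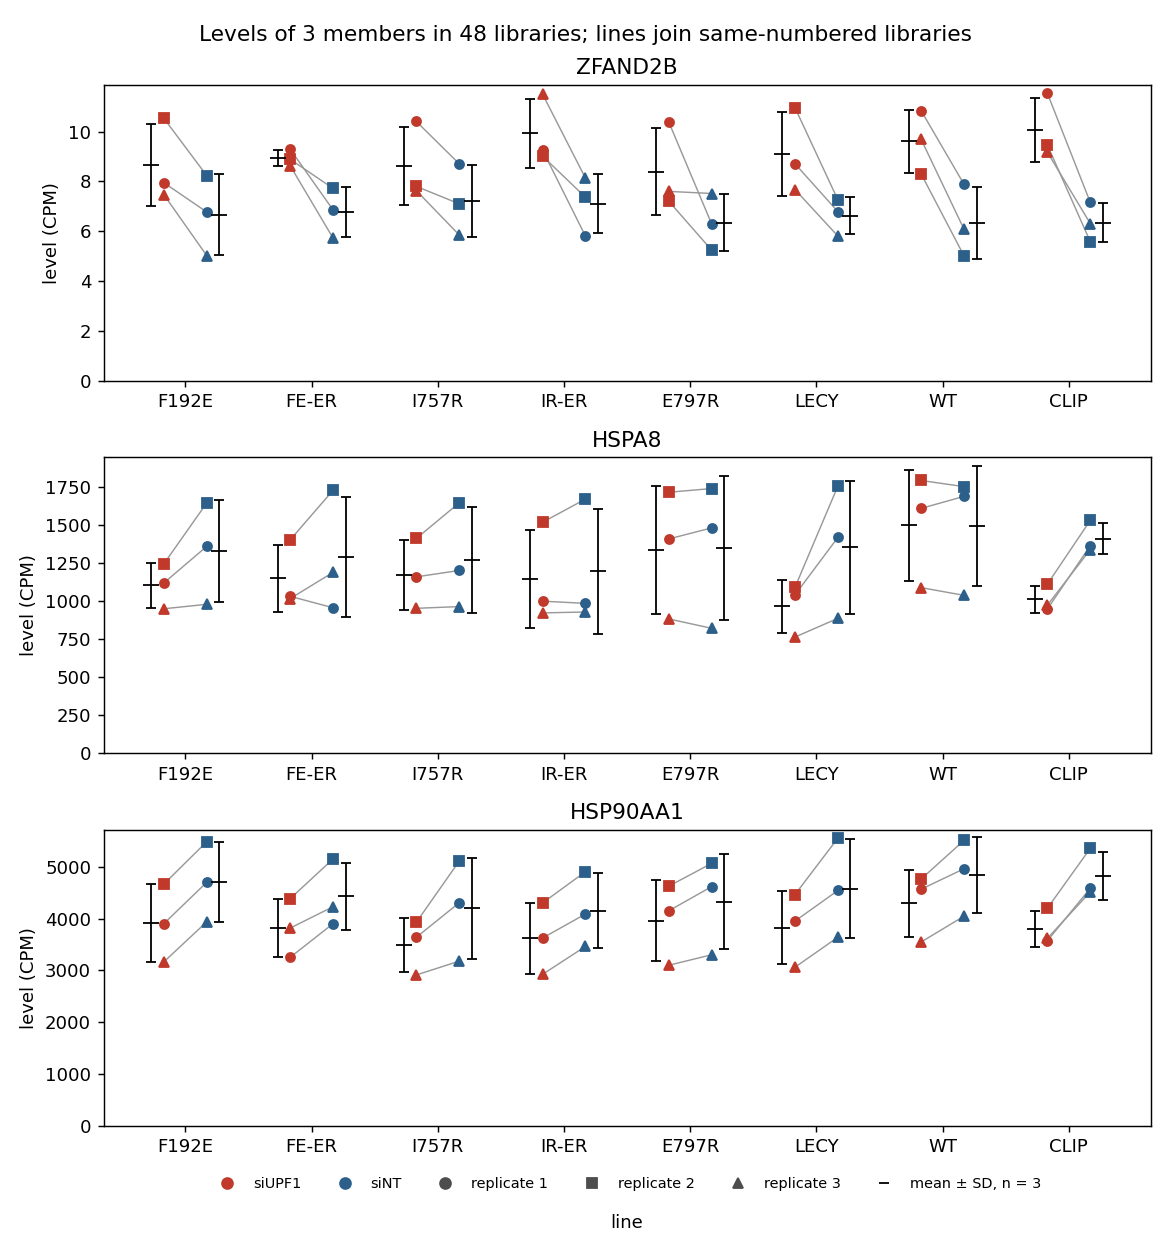
Levels in CPM (vertical axes) of ZFAND2B, HSPA8 and HSP90AA1 in 48 libraries by line, with siUPF1 in red left of siNT in blue; grey lines join libraries of 1 replicate number and black bars are the mean ± SD of 3 libraries. Every grey line of ZFAND2B falls towards siNT and every grey line of HSP90AA1 climbs towards siNT, 24 of 24 each, and HSPA8 is lower with siUPF1 in 19 of 24 pairs.

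Levels of the chaperone genes differed between replicate numbers. HSPA8 averaged 1235 CPM over the 16 libraries numbered 1, 1547 over those numbered 2 and 980.0 over those numbered 3, and HSP90AA1 averaged 4149.6, 4845 and 3529 CPM. ZFAND2A averaged 16.7, 18.8 and 17.4 CPM over the same libraries. The labels do not say what a replicate number stands for.

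Between lines under the same siRNA, none of the 9 genes was called in 63 cases with siUPF1, in 63 with siNT or in 63 differences of knockdown effects by edgeR, nor by DESeq2. Unadjusted edgeR p-values were under 0.05 in 2, 0 and 0 of these cases, the 2 being BAG3 in FE-ER against WT and HSPA8 in LECY against WT. With siUPF1 the share of all genes called was 13.5% for LECY against WT, 1.82% for F192E, 0.0779% for I757R, 0.0479% for E797R, 0.425% for FE-ER, 0.246% for IR-ER, and 14.1% for WT against CLIP. With siNT it was 0% for F192E, 0.00599% for LECY, I757R, FE-ER and IR-ER, 0.018% for E797R and 0.012% for WT against CLIP. For the differences of knockdown effects it was 3.31% for LECY, 0.18% for F192E, 0.00599% for FE-ER, 0% for I757R, E797R and IR-ER, and 4% for WT against CLIP. A count of 0 among these genes is therefore near the background in most of these contrasts.

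With siUPF1, HSPA8 had the smallest adjusted p of the 9 genes between lines. The log2 difference was −0.63 for LECY against WT (95% interval −1.24 to −0.03, edgeR adjusted p = 0.17) and 0.57 for WT against CLIP (−0.04 to 1.17, edgeR adjusted p = 0.227). Replicate numbers also paired the libraries of these lines, and with the block both were called, at −0.62 (edgeR adjusted p = 0.00381) and 0.53 (edgeR adjusted p = 0.0124), beside 24.4% and 25.4% of all genes. ZFAND2A, given as a description, differed by 2.09 for LECY against WT and by −2.09 for WT against CLIP, and by 1.16 for F192E, 0.42 for FE-ER, 0.40 for I757R, 0.11 for IR-ER and −0.19 for E797R against WT. HSPA8 differed from WT by −0.44 in F192E, −0.35 in I757R, −0.17 in E797R, −0.38 in FE-ER and −0.38 in IR-ER, none of them called, and all these comparisons share the WT libraries. With siNT the log2 differences of the 9 genes lay between −0.42 (HSPA1A, FE-ER against WT) and 0.60 (HSPB1, WT against CLIP).

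Other chaperone genes were counted from lists written for this comparison. In LECY 15.8% of all genes tested rose and 13.6% fell, in WT 8.43% and 6.98%, and in CLIP 18.1% and 15.6%, all by edgeR at an adjusted p under 0.05. With the replicate block the shares of all genes were 21.4% and 20.2% in LECY, 13.7% and 12.4% in WT, and 23.5% and 22.2% in CLIP. Of 34 further cytosolic chaperones and HSF1 targets tested, 6 rose and 5 fell in LECY, 1 rose and 5 fell in WT, and 6 rose and 5 fell in CLIP (with the replicate block 7 and 13, 5 and 8, and 8 and 9). In LECY and CLIP these were 17.6% rising and 14.7% falling, near the shares of all genes, while in WT 2.94% rose and 14.7% fell. With the block the falls made 38.2% of the list in LECY, 23.5% in WT and 26.5% in CLIP, and the rises 20.6%, 14.7% and 23.5%. ST13, the HSP70-interacting protein HIP, rose by 1.01 in LECY, 1.16 in WT and 1.003 in CLIP on the log2 scale. DEDD2 (0.77) and DNAJB2 (0.62), an HSP40 of neurons, also rose in CLIP, and FKBP4, an immunophilin that works with HSP90, fell by 0.62. The median log2 change of this list in CLIP was −0.09, against −0.03 over all genes. Of 4 HSF regulators 1 rose and 1 fell in LECY, 0 rose and 1 fell in WT, and 1 rose and 1 fell in CLIP (2 rose in CLIP and 1 in WT with the block). Of the same 4, 1 rose and 1 fell also in each of F192E, FE-ER and IR-ER. In I757R 0 rose and 1 fell, and in E797R 0 rose and 0 fell. The ZFAND2A log2 change in IR-ER was 0.04. Of all genes 11.8% rose in F192E, 10.1% in FE-ER and 9.21% in IR-ER. HSF1 itself rose by 0.43 in LECY, 0.42 in F192E and 0.58 in CLIP (edgeR adjusted p = 3.2e-05), with a change of 0.25 in WT (edgeR adjusted p = 0.11, with the block 0.0439). HSBP1, which binds and restrains HSF1, fell, with log2 changes of −0.40 in LECY, −0.37 in WT and −0.28 in CLIP.

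The cytosolic chaperonin TRiC, which folds actin and tubulin, was the only chaperone list with falls and no rise in CLIP. Of its 8 subunit genes 5 fell in LECY, 4 in F192E, 2 in I757R, 2 in E797R, 3 in FE-ER, 2 in IR-ER, 1 in WT and 5 in CLIP, and none rose. With the replicate block 8, 7, 7, 3, 7, 6, 3 and 8 fell in the same lines. Falls took 10.1%, 7.79%, 7.73%, 8.52% and 7.8% of all genes in F192E, I757R, E797R, FE-ER and IR-ER, and 16.7%, 14.1%, 13.5%, 14.9% and 13% with the block. CCT4 fell, with log2 changes of −0.65 in LECY, −0.40 in WT and −0.58 in CLIP. CCT2 (−0.58), CCT7 (−0.52) and CCT8 (−0.39) followed in CLIP, and the median log2 change of the 8 was −0.44 in LECY, −0.36 in F192E, −0.33 in I757R, −0.17 in E797R, −0.34 in FE-ER, −0.29 in IR-ER, −0.17 in WT and −0.45 in CLIP. TRiC genes fell also in I757R and IR-ER, where the ZFAND2A log2 change was 0.20 and 0.04. Some TRiC genes have pseudogenes, and RSEM divides shared reads between gene and copy by estimation.

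Among the relatives of the 10 genes, BAG1, a BAG-domain exchange factor of HSP70, rose by 1.76 in LECY, 0.71 in WT and 1.78 in CLIP, and BAG4 fell by 0.40 in CLIP, of 5 BAG genes other than BAG3. Of 5 other AN1-type ZFAND genes, ZFAND3 rose by 0.59 in LECY and 0.75 in CLIP with a change of −0.03 in WT (edgeR adjusted p = 0.888), and ZFAND6 fell by 0.58 in CLIP. With the block 2 of these 5 rose and 1 fell in CLIP, and 3 fell in WT. Of 35 proteasome and VCP genes, 1 rose in CLIP, PSMD11 (0.53), and none fell in the fit without the block (5 rose and 7 fell with it).

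Of 14 ER chaperones 2 rose and 1 fell in LECY, 3 rose in WT and 2 rose in CLIP (4 rose and 2 fell, 5 rose, and 3 rose and 2 fell with the block). HYOU1 rose by 0.85 in WT and 1.05 in CLIP, and DNAJB9 rose by 0.70 in CLIP. Of 8 mitochondrial chaperones and proteases, LONP1 (1.35), TRAP1 (0.41) and HSPA9 (0.26) were among 4 that rose in CLIP, and GRPEL1 fell by 0.42. Arsenite and oxidative stress also induce ZFAND2A, and of 10 genes tested of that response 3 rose in LECY, 2 rose in WT, and 5 rose and 1 fell in CLIP (5 and 2, 4 and 1, and 5 and 2 with the block). MT1X, a metallothionein, rose by 3.56 in LECY, 2.42 in WT and 3.49 in CLIP, and MT2A (0.99), SLC7A11 (0.74) and GCLC (0.33) were the next in CLIP. Of 14 genes listed as NMD readouts, 12 rose in LECY, 1 in WT and 12 in CLIP, led in CLIP by SMG1 (1.55), RASSF1 (1.84), GABARAPL1 (1.61) and BAG1. That list was written with earlier results of these data known, so its count is a description and not an independent check.

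Immediate early genes were counted because they respond to handling of cells. Whether handling or the loss of UPF1 moved them was not tested. Of 9 tested, 4 rose in LECY, 3 in CLIP, 1 each in F192E, IR-ER and FE-ER, and 0 in I757R, E797R and WT. With the block 4 rose in LECY, 3 each in CLIP, F192E and IR-ER, 2 each in FE-ER and E797R, and 1 each in I757R and WT. Of all genes tested 11.8% rose in F192E, 9.21% in IR-ER, 10.1% in FE-ER, 8.13% in I757R and 8.34% in E797R. With the block these shares were 17.9%, 15.3%, 16.2%, 14.4% and 14%. A count of 1 in 9 is 11.1%, near the shares without the block. In CLIP ARC (1.88), ATF3 (1.32) and JUN (1.03) rose. Their median log2 change was 0.59 in LECY, 0.44 in IR-ER, 0.35 in CLIP and −0.13 in WT, and with siUPF1 the difference of IR-ER against WT was called for 2 of the 9, both higher in IR-ER, at a median of 1.07. The ZFAND2A change in IR-ER was 0.04. Their summed level was 724 to 915 CPM with siUPF1 and 419.9 to 550.4 CPM with siNT in LECY, 656 to 1199 CPM with siUPF1 and 458 to 841 CPM with siNT in IR-ER, 553 to 792 CPM with siUPF1 and 439.8 to 512 CPM with siNT in WT, and 779.8 to 1063 CPM with siUPF1 and 396 to 615 CPM with siNT in CLIP.

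Of 13 mitochondrially encoded mRNAs, taken as a sign of RNA quality, 3 rose in FE-ER, 1 each in LECY and F192E, and 0 in the other 5 lines, and with the block 6 rose in FE-ER, 3 in F192E, 2 in LECY and 1 in IR-ER. Rises made 23.1% of them in FE-ER and 7.69% each in LECY and F192E, against 10.1%, 15.8% and 11.8% of all genes tested. With the block these were 46.2% in FE-ER, 15.4% in LECY and 23.1% in F192E, against 16.2%, 21.4% and 17.9% of all genes. The median log2 change of the 13 mRNAs was 0.38 in FE-ER, 0.29 in F192E, 0.24 in IR-ER, 0.18 in LECY and −0.03 in CLIP. They summed to 28757 to 35565 CPM with siUPF1 and 19796 to 34689 CPM with siNT in LECY, 27210.4 to 32997 CPM with siUPF1 and 21463 to 29451 CPM with siNT in F192E, 23149 to 43205 CPM with siUPF1 and 23924 to 29462 CPM with siNT in FE-ER, and 21942 to 27260.4 CPM with siUPF1 and 22541 to 27280.0 CPM with siNT in CLIP. Of 6 markers of 293 cells tested, 2 fell in CLIP, PAX2 (−1.32) and INA (−0.42), and of 2 fibroblast markers COL3A1 fell (−1.40). Of the 6, 2 fell also in each of LECY, F192E, E797R, IR-ER and WT, and 1 in each of I757R and FE-ER. Falls made 33.3% of the 6 in CLIP, against 15.6% of all genes. Of the 2 fibroblast markers 1 fell in LECY, and 1 rose in each of I757R and E797R. The part of these in the ZFAND2A values was not tested.

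The genes whose group means followed ZFAND2A most closely were ranked among 11943 genes by Pearson's r of mean log2 CPM over the 16 groups. They were RHBDD2 (r = 0.983), TXNL4B (0.983), STC2 (0.980), a secreted glycoprotein of the ER stress response, BRAP (0.978) and LINC01578 (0.978). TXNL4B averaged 44.6 ± 1.20 CPM with siUPF1 and 17.9 ± 2.19 CPM with siNT in CLIP cells, and RHBDD2 averaged 27.9 ± 4.50 and 15.7 ± 1.55 CPM (SD, n = 3 each). The 3 groups with the highest ZFAND2A stand apart from the other 13, and the 16 groups share siRNAs and lines, so r describes this contrast. For HSPA8 the 5 most similar genes were PCDH7 (0.968), CTNNB1 (0.964), TWF1 (0.956), HNRNPK (0.952) and TMPO (0.950), none of which is a chaperone gene.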

How the data were processed

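Ribosomal RNA-depleted total RNA of 48 libraries was measured. The authors deposited RSEM expected counts of 58870 genes a library, 9.16% of them not whole. Per the submitters' processing notes cutadapt, STAR, RSEM and DESeq2 were used with hg38; no source used here gives versions, annotation release or strand setting. RSEM divides reads that match several genes, which touches HSPA1A and HSPA1B most.

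Expected counts were rounded and genes kept with edgeR's filterByExpr (minimum count 10), leaving 16697. All libraries entered 1 model of 16 groups (edgeR 4.0.16, limma 3.58.1, R 4.3.3; TMM factors 0.951 to 1.03; robust quasi-likelihood F test, two-sided, Benjamini-Hochberg adjustment over all genes tested in a contrast, called under 0.05). CPM used TMM-scaled totals, intervals are 95% from the SE of the fit, and CPM are not comparable between genes of different length. The replicates are called biological in the design text, and 3 libraries against 3 cannot reach a p under 0.1 in an exact permutation test. Libraries held 6016999 to 14551820 counts, which limits the precision of low genes. The test was run on simulated counts with the same spread for every gene and no effect of replicate number. That check therefore does not cover libraries that deviate together by number.

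Same-numbered siUPF1 and siNT libraries deviated from their group means together (r 0.115 to 0.469, median 0.291; 24 of 24 pairs over 0.1), so the numbers pair them. Under siUPF1 they also paired WT with CLIP and LECY with WT. The block is printed beside a result where it changes a call.

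Alternatives were the replicate block, RLE size factors, no filter, DESeq2 1.42.0, only the 2 groups compared, summed HSPA1A and HSPA1B counts, and leaving out libraries. Named genes were the 10 members, UPF1, in each further list the 4 genes called with the smallest adjusted p in the CLIP knockdown, and the 5 genes most like ZFAND2A and HSPA8 in pattern (mean CPM at least 5, prior count 2). The members and lists were chosen with earlier results of these data known. Positions are those of GENCODE 29 (hg38; 16667 of 16697 tested Ensembl IDs matched), and promoters from RefSeq (GRCh38.p14).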

Additional observations from a re-analysis of the deposited data

Results flagged for a closer look

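ZFAND2A drew attention because, in some pairs of lines, every same-numbered pair of one line moved up with siUPF1 and every pair of the other moved down. Its knockdown effect in F192E minus that in WT was 1.21 on the log2 scale, in FE-ER minus WT 0.76, in LECY minus WT 2.38 and in WT minus CLIP −2.10. The difference was not tested, since ZFAND2A was selected on these values.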

How the results depend on the processing

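The count of knockdown calls among the 9 tested genes was 2 of 72 and depended on the fit. It was 9 with the replicate block (3 rises, 6 falls), 6 with no expression filter (1 rise, 5 falls), 4 with only the 2 groups compared (2 rises, 2 falls), and 0 to 3 over all fits that left out 1 library or 1 replicate number. Among all genes the fit with no filter called 5071 in CLIP, 4402 in LECY and 2252 in WT, against 5622, 4917 and 2572 with the filter. For the 2-group fits the share of all genes was not counted. Of their 2 rises 1 was ZFAND2B in CLIP, and the other was not ZFAND2B in WT or IR-ER. That other rise is not named here, so it could be a heat shock gene or ZFAND2B in a further line. Without replicate 1 of every group the count was 0, and the ZFAND2B rise in CLIP then had an edgeR adjusted p of 0.0586. Leaving out a whole replicate number was chosen after seeing the data. Calls between lines under siUPF1 were 0, but 3 with the replicate block, 6 with no filter and 1 with only the 2 groups compared. Among all genes the fit with no filter called 2001 for WT against CLIP and 1919 for LECY against WT. Against WT it called 389 for F192E, 148 for FE-ER, 196 for IR-ER, 103 for I757R and 40 for E797R. Which of the 9 genes made up the 6 calls is not given here. The block also called a fall of BAG3 in FE-ER against WT under siUPF1 (−0.31, edgeR adjusted p = 0.0335), where it called 436 of 16697 genes. The same-numbered libraries there had r of 0.0869, 0.276 and 0.258, the first of them under the 0.1 set for pairing. Under siNT, and for the differences of knockdown effects, calls were 0 under every alternative run. DESeq2, RLE size factors and summed HSPA1 counts gave 2 and 0 calls in the first 2 families. Over the fits without 1 library or 1 replicate number, the ZFAND2A change was −0.31 to −0.22 in E797R, −0.33 to −0.14 in WT and 0.04 to 0.35 in I757R, and IR-ER was the 1 line whose sign varied (−0.07 to 0.09). The HSPA8 change was −0.72 to −0.25 in LECY, the −0.25 without siNT replicate 2, and −0.54 to −0.41 in CLIP. The HSP90AA1 change was −0.40 to −0.09 in LECY, −0.42 to −0.14 in F192E, −0.43 to −0.11 in I757R and −0.41 to −0.25 in CLIP, in such fits without the block. BAG3 in FE-ER against WT was −0.51 to −0.17. The cause of these shifts was not tested. HSPB1, with 9 to 53 counts a library, is limited by depth.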
